A study of Mus musculus with 20 samples.

Results

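The change between 1 h and 3 h of stimulation with TNF was followed in primary mouse embryonic fibroblasts, connective tissue cells grown out of embryos. Its members were chosen by label: the TNF libraries of 3 h were set against those of 1 h in both genotypes, 4 of the 20 libraries of the series, with genotype as a block. No unstimulated library enters the contrast. All cells came from C57BL/6 mice and lacked c-Rel, an NF-kB subunit, in both genotypes. The first genotype is crel-/-. The second is crel-/-RelA-TA-KI, in the text below the knock-in, in which Rela (the gene of the RelA subunit) is altered as well; TA is not spelled out in the labels. Cells were serum-starved overnight in medium with 0.5% serum and then given TNF at 10 ng/ml. The other libraries are unstimulated cells (0 h), cells given TNF for 0.5 h, and cells given IL-1b at 10 ng/ml or LPS at 100 ng/ml for 0.5, 1 and 3 h. No library of unstimulated cells was taken at 1 h or 3 h. Changes due to TNF therefore cannot be told apart from changes over the same time due to starvation or handling. Each genotype, agent and time is 1 library, and nothing in the labels states separate cultures. The p-values therefore measure a late change against how the difference between the genotypes varies over the conditions. That spread may be technical scatter, and it also holds any real effect of genotype on the responses. Variation between separate cultures may not be in it.

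TNF binds its receptors on the cell surface and activates NF-kB and the MAP kinases. NF-kB dimers move to the nucleus within minutes and switch on genes for chemokines, adhesion molecules and survival proteins, together with genes for their own inhibitors, the IkB proteins and A20. The MAP kinases drive a short burst of immediate early genes such as Fos and Egr1. Genes that rise later often need newly made proteins, more stable mRNA or slow changes at chromatin, while many of the early transcripts are degraded.

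Total counts of the 20 libraries lay between 9248151 and 12574135, and levels are given in CPM, counts per 1e6 of the scaled library total. The 9 fibroblast markers checked, among them Col1a1 and Thy1, were all present, with a summed level of 56060 to 64460 CPM over the 4 TNF libraries of 1 h and 3 h. All 17 macrophage markers checked were present as well, with a sum of 5066 and 5719 CPM at 1 h and of 6053 and 6286 CPM at 3 h. Lyz2, which encodes the macrophage lysozyme, had 1414 to 2160 CPM in these 4 libraries. Endothelial markers summed to at most 35.9 CPM, epithelial markers to at most 19.7 CPM and muscle markers to at most 37.2 CPM. Neural and Schwann markers summed to 107 to 166 CPM. Cartilage markers summed to 1007 to 1201 CPM, and Col11a1, the highest of them, had a mean of 1002 CPM.

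A gene is called here where the adjusted p of the late change was under 0.05. Of 14023 genes tested, 1712 (12.2%) were called higher at 3 h than at 1 h and 1465 (10.4%) lower, 22.7% in all, and the median change over all genes was 0.00 on the log2 scale. Most of these changes were small: 224 genes (1.6%) were called with a rise of at least 1 on the log2 scale, and 271 (1.93%) with a fall of that size. In 1666 of the 1712 and 1427 of the 1465 called genes, both 3 h libraries lay on the same side of both 1 h libraries, beside 28.6% and 27.3% of all genes tested that had this order upward and downward. The count of rises was 669 when the crel-/- 1 h library was left out, 878 for the knock-in 1 h, 1049 for the crel-/- 3 h and 1212 for the knock-in 3 h library. The count of falls was 653, 771, 857 and 998 without the same libraries. Calls named below held without each of the 4 libraries in turn unless a library is named. In a fit of the 4 libraries alone, the calls of Alpl, Arntl, Ccl5, Cd14, Cflar, Clec4e, Egr1, Fosb, Ibsp, Klf10, Prlr, Taf1b, Tnip2, Tnip3 and Traf2 ended, with adjusted p of 0.0502 (Tnip3) to 0.158 (Egr1).

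**Figure D1:**
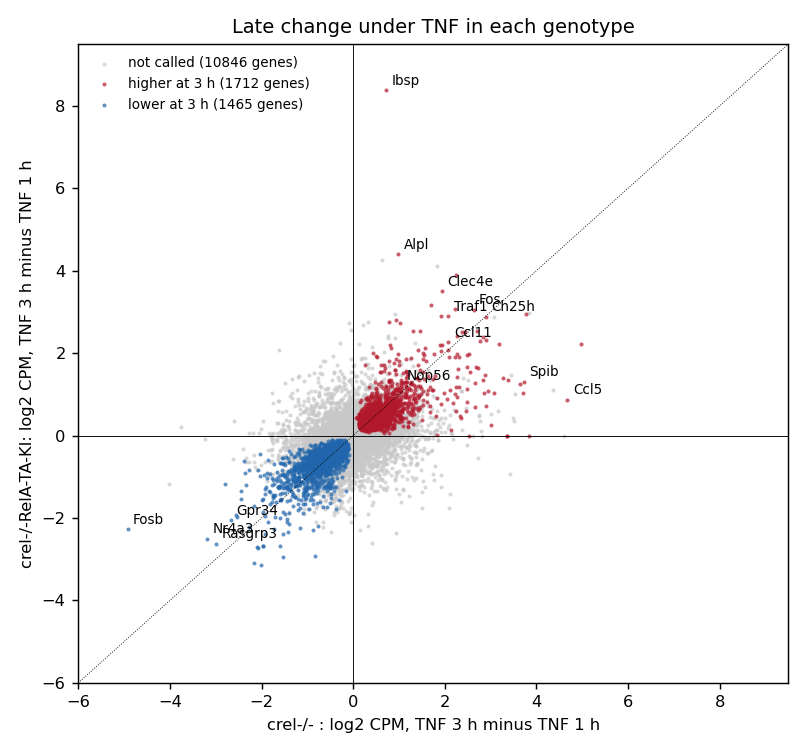
Change in log2 CPM from 1 h to 3 h of TNF in the crel-/- libraries (x axis) and in the knock-in libraries (y axis), 1 point per gene, coloured by the call of the fit over both genotypes (1712 higher, 1465 lower), with the dotted line marking equal change. Fosb and Rasgrp3 lie at the low end in both genotypes, whereas Ibsp rose by 8.38 in the knock-in pair against 0.71 in the crel-/- pair, and Ccl5 by 4.67 in the crel-/- pair against 0.87 in the knock-in pair.

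As examples, the 250 bases upstream of the start are given for 3 genes of the late rise and 1 of the late fall, from RefSeq on GRCm38.p6, 5′ to 3′ on the gene's strand. All 4 hold a match to the NF-kB motif, unlike most genes called with a change of at least 1 on the log2 scale. They are therefore not typical of the called genes, whose shares are given below. Capitals mark every match to the NF-kB consensus motif on either strand.
Ccl9, upstream of the start (chr11:83578637-83578886, minus strand): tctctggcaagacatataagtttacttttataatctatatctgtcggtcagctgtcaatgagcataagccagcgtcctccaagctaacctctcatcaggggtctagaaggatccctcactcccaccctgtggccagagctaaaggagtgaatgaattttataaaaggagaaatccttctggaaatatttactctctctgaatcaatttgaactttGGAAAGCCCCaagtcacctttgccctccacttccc
Cxcl3, upstream of the start (chr5:90785851-90786100, plus strand): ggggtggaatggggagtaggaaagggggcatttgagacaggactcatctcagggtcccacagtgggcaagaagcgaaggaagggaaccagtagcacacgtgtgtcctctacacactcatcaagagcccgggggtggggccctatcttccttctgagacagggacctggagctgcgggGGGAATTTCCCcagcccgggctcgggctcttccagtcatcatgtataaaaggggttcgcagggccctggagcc
Tnip3, upstream of the start (chr6:65590148-65590397, plus strand): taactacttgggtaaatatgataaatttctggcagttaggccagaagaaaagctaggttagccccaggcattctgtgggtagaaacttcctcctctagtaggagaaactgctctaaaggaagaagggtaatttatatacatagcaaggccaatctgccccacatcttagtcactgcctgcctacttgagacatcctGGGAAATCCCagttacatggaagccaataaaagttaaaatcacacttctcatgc
Fosb, upstream of the start (chr7:19310046-19310295, minus strand): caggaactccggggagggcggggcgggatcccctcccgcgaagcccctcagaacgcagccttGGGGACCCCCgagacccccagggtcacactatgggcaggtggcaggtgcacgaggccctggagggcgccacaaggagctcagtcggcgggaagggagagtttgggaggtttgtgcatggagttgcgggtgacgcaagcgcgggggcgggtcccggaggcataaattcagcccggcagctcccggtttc
The first lies upstream of Ccl9, a chemokine gene, the second upstream of Cxcl3, a chemokine that attracts neutrophils, and the third upstream of Tnip3, whose protein binds A20. The fourth lies upstream of Fosb, an immediate early gene of the AP-1 family. Ccl9 also holds a match to the AP-1 pattern searched, TGANTCA, in which N is any base and here A. That match begins 53 bases before the start. Cxcl3 holds an E-box (CACGTG) that begins 155 bases before its start. The run in Cxcl3 holds 2 overlapping matches, 1 base apart. Promoters of this length were found for 9529 of the genes tested, and 8.92% of them hold a match to the NF-kB motif. Of the genes called with a rise of at least 1 on the log2 scale, 142 had a promoter and 19.0% of these hold a match, and of those called with a fall of that size, 180 had one and 7.78% hold a match. For AP-1 the shares were 4.25%, 9.15% and 4.44%, in the same order, and for the cyclic AMP response element TGACGTCA 2.79%, 3.52% and 1.67%. For the CArG box, the motif of serum response factor, they were 1.1%, 0% and 1.11%, and for the E-box 8.64%, 4.93% and 6.67%. Both strands were searched and no test was made, so these shares are a description, and a match is not a bound site.

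Among called genes with a mean of at least 5 CPM at 3 h and a symbol that is no clone name, the 12 largest fitted rises were those of Ibsp, Ccl5, Alpl, Spib, Saa3, Ccl12, Ccr3, Ch25h, Fos, Ifi205, Cxcl9 and Ifit1bl1. Fos, described below, was the single gene of these 12 whose call held without each library in turn. Ibsp, which encodes bone sialoprotein, had 0.557 and 0.0843 CPM at 1 h in crel-/- and knock-in cells, and 1.03 and 88.8 CPM at 3 h. One library carried the rise: the adjusted p was 0.0296, and 0.555 with the knock-in 3 h library left out (0.0763 and 0.304 with the crel-/- or the knock-in 1 h library left out). Alpl, tissue alkaline phosphatase, followed the same order, with 0.557 and 0.337 CPM at 1 h, and 1.28 and 10.8 CPM at 3 h (adjusted p = 0.0244, and 0.246 without that library, 0.112 and 0.151 with the crel-/- or the knock-in 1 h library left out). Ccr3, a chemokine receptor, went from 0.186 and 1.52 CPM to 1.54 and 14.2 CPM (adjusted p = 0.0245, and 0.481, 0.133 and 0.0747 without the same libraries). The reverse held for Ccl5, a chemokine for T cells, which had 3.90 and 0.759 CPM at 1 h and 104 and 1.54 CPM at 3 h (adjusted p = 0.0328, and 0.696 without the crel-/- 3 h, 0.382 and 0.0765 with the crel-/- or the knock-in 1 h library left out). Spib, an ETS family transcription factor, rose from 1.30 to 19.4 CPM in crel-/- cells and had 0.0843 and 0.48 CPM in the knock-in libraries (adjusted p = 9.74e-04, and 0.277 without the crel-/- 3 h and 0.174 without the crel-/- 1 h library). Saa3, serum amyloid A3, had no count in the knock-in libraries of 0, 0.5, 1 and 3 h, and 0.836 and 10.2 CPM in crel-/- cells, so its call (adjusted p = 0.00549) rests on crel-/- alone and it ended without either crel-/- library, with a fitted change of -0.49 when the 1 h library was the one left out. Ch25h, cholesterol 25-hydroxylase, rose in both genotypes, from 11 and 5.06 CPM to 83.0 and 38.6 CPM, with a log2 change of 2.92 ± 0.85 (adjusted p = 0.0357, and 0.0806 to 0.174 with 1 library left out).

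Genes of TNF signalling itself were led by Traf1, an adaptor of the TNF receptor complex that lies on chromosome 2 at 34941750-34961772 (mm10, minus strand). Traf1 had 7.62 CPM in the crel-/- and 2.78 CPM in the knock-in library at 1 h and 32.7 and 21.9 CPM at 3 h. Both 3 h values lay above both 1 h values, and the fitted log2 change was 2.53 ± 0.30 (SE; adjusted p = 3.08e-04). At 0 h it had 0.806 and 0.594 CPM, so most of its level at 3 h was gained after 1 h. Of 18 genes of TNF receptor signalling and survival, 4 were called higher and none lower, with a median of 0.37, a share of calls near the 22.7% of all genes. The others called were Casp8, the initiator caspase, by 0.54 ± 0.11 (adjusted p = 0.00488, and 0.0588 without the crel-/- 3 h library), Traf2, a partner of Traf1, by 0.59 ± 0.18 (adjusted p = 0.0357), and Cflar, an inhibitor of caspase-8, by 0.35 ± 0.11 (adjusted p = 0.0363). The calls of Traf2 and Cflar ended in 3 and 4 of the 4 leave-outs, with adjusted p of 0.0658 to 0.311. Tnfrsf1a, the receptor for soluble TNF, had a change of 0.39 ± 0.15 (adjusted p = 0.079).

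Nfkbia, the gene for IkB alpha, had 592 and 92.2 CPM at 1 h in crel-/- and knock-in cells and 564 and 147 CPM at 3 h, a fitted change of 0.33 ± 0.71 (adjusted p = 0.775). Tnfaip3, the gene for A20, had 310 and 20.2 CPM at 1 h and 244 and 31.7 CPM at 3 h (0.16 ± 0.95, adjusted p = 0.925). For both genes the crel-/- level was lower and the knock-in level higher at 3 h than at 1 h, and the knock-in level stayed below the crel-/- level. Of the 13 members of the cytoplasmic IkB and A20 list, 2 were called, both higher, beside 22.7% of all genes called. In the fit of the 4 libraries alone Nfkb2 (adjusted p = 0.107, and 0.00913 in that fit) and Nfkbib (0.182 and 0.0381) were called as well. Tnip3 went from 24.2 and 9.36 CPM to 67.4 and 55.3 CPM, a rise of 2.06 ± 0.43 (adjusted p = 0.00755, 0.0593 and 0.0567 with the crel-/- or the knock-in 1 h library left out). Tnip2, another A20-binding protein, rose by 0.65 ± 0.17 (adjusted p = 0.0171, 0.159 without the crel-/- 1 h and 0.109 without the crel-/- 3 h library). None of the 5 nuclear IkB and NF-kB subunit genes was called, beside 22.7% of all genes, but Relb and Rela were called in the fit of the 4 libraries alone. Relb, a subunit of the noncanonical pathway, had 119 and 37.0 CPM at 1 h and 206 and 67.9 CPM at 3 h (0.83 ± 0.42, adjusted p = 0.186, and 0.0102 in that fit). Nfkbiz, which encodes a nuclear IkB protein, had 39.6 and 20.3 CPM at 1 h and 31.5 and 54.7 CPM at 3 h (0.73 ± 0.63, adjusted p = 0.437). Rela had a change of 0.40 ± 0.20 (adjusted p = 0.165, and 0.04 in that fit). Rel had one of 0.14 ± 0.17 (adjusted p = 0.601), although both genotypes are labelled as lacking c-Rel.

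Chemokine genes had the second highest median of the signalling lists, 1.43 on the log2 scale. Of 20 tested, 8 were called higher and 1 lower, beside 12.2% and 10.4% of all genes, and the count of rises was 2 without either 1 h library, 5 without the knock-in 3 h library and 6 without the crel-/- 3 h library. Ccl9 lies on chromosome 11 at 83572919-83578636 (mm10, minus strand) and had 167 and 148 CPM at 1 h and 450 and 376 CPM at 3 h. It rose in both genotypes, by 1.38 ± 0.18 (adjusted p = 6.73e-04), over 0 h levels of 78.4 and 72.7 CPM. Ccl11, eotaxin, went from 3.25 and 2.36 CPM to 14.3 and 12.1 CPM, a rise of 2.24 ± 0.40 (adjusted p = 0.00234). Cxcl3 went from 2.42 and 0.337 CPM to 8.31 and 4.51 CPM (2.42 ± 0.57, adjusted p = 0.00947, 0.0763 and 0.0522 with the crel-/- or the knock-in 1 h library left out). Cxcl12, the chemokine that fibroblasts make without stimulation, fell from 614 and 546 CPM to 492 and 357 CPM, by 0.46 ± 0.10 on the log2 scale (adjusted p = 0.00618, 0.0535 without the knock-in 1 h and 0.0515 without the knock-in 3 h library).

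Other chemokine and adhesion genes differed between genotypes at both times and were not called. Ccl2, a chemokine for monocytes, had 621 and 50.6 CPM at 1 h and 1174 and 390 CPM at 3 h (1.81 ± 0.91, adjusted p = 0.179). Icam1, an adhesion molecule for leukocytes, had 454 and 42.5 CPM at 1 h and 932 and 118 CPM at 3 h (1.20 ± 0.78, adjusted p = 0.295, and 0.014 in a fit of the 4 libraries alone). Vcam1, another, had 772 and 161 CPM and then 1389 and 251 CPM (0.76 ± 0.61, adjusted p = 0.404, and 0.0125 in that fit). Within each genotype the 3 h library was the higher one for all 3 genes. In log2 CPM, Icam1 rose by 1.04 in the crel-/- and 1.47 in the knock-in pair, and Vcam1 by 0.85 and 0.64. The crel-/- 1 h value exceeded the knock-in 3 h value for all 3 genes. This overlap lies between genotypes, and the fit sets it aside because genotype is its block. Cxcl1 had 38.4 and 2.95 CPM at 1 h and 44.5 and 20.1 CPM at 3 h (1.39 ± 0.78, adjusted p = 0.226). Il6 was low at both times, 1.67 and 0.675 CPM and then 2.14 and 2.69 CPM (adjusted p = 0.615). Among 23 cytokines and growth factors 1 was called, beside 22.7% of all genes. It was Il1rn, the antagonist of the IL-1 receptor, which rose from 61.9 and 51.4 CPM to 100.3 and 72.4 CPM, by 0.60 ± 0.12 (adjusted p = 0.00304). Madcam1, an adhesion molecule of mucosal vessels, had 1 count over both 1 h libraries and 44 at 3 h, all in crel-/- cells, a ratio of 45.1 with a 95% counting interval of 7.68 to 1819. Its call (adjusted p = 9.96e-04) ended without the crel-/- 1 h (0.593) or the crel-/- 3 h library (0.921).

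**Figure D2:**
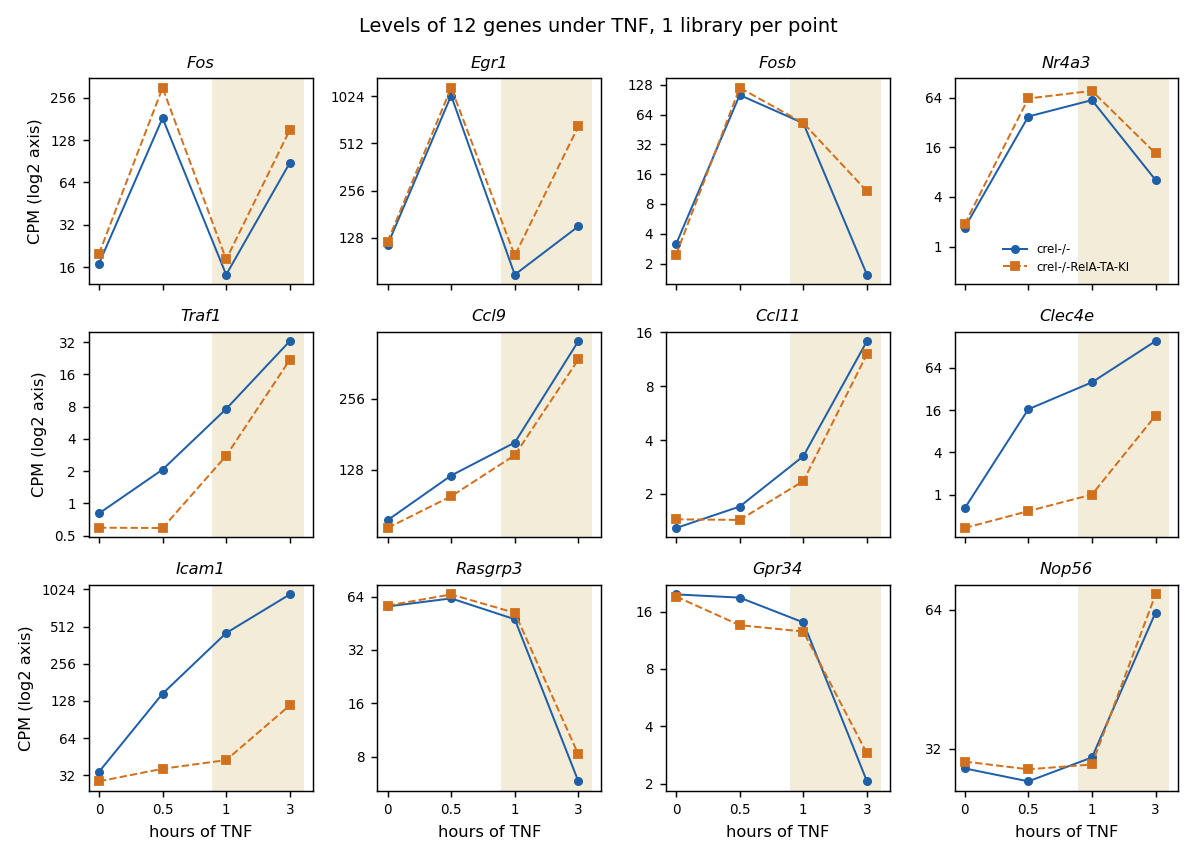
Levels in CPM (log2 axis) of 12 genes in unstimulated cells (0 h) and after 0.5, 1 and 3 h of TNF, with 1 library per point, circles for crel-/- and squares for the knock-in, and the 1 h to 3 h interval shaded. Fos and Egr1 have their lowest TNF level at 1 h and rise again, Fosb and Nr4a3 fall, Traf1, Ccl9 and Ccl11 keep rising, and Rasgrp3, Gpr34 and Nop56 change mainly after 1 h; Icam1 was not called.

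Effector genes of innate immunity had the highest median, 1.59, yet 3 of 21 tested were called, all higher, beside 12.2% of all genes. Clec4e, the receptor Mincle, went from 39.6 and 1.01 CPM to 152 and 13.3 CPM (2.51 ± 0.62, adjusted p = 0.0169, 0.157 and 0.0653 with the crel-/- or the knock-in 1 h library left out). Serpina3g, a serine protease inhibitor, went from 27.3 and 12.6 CPM to 159 and 50.0 CPM (2.31 ± 0.63, adjusted p = 0.0265, and 0.122 to 0.149 without the crel-/- 1 h, crel-/- 3 h or knock-in 1 h library). Nos2, inducible nitric oxide synthase, had no count at 1 h and 50 counts at 3 h, all in the crel-/- library, at least 17.1-fold higher against the floor of 3 counts over both libraries. Lcn2, lipocalin-2, had none at 1 h and 18 counts at 3 h, at least 6.14-fold higher. Neither was called (adjusted p = 0.282 and 0.0612). In matrix remodelling, 3 of 23 genes were called higher and 1 lower, a share of calls below the 22.7% of all genes. Mmp9, gelatinase B, rose from 8.36 and 2.28 CPM to 39.9 and 9.02 CPM (2.16 ± 0.39, adjusted p = 0.00271, and 0.0536 without the crel-/- 1 h library). Adamts5, aggrecanase-2, fell from 324 and 416 CPM to 108 and 190 CPM, by 1.34 ± 0.30 on the log2 scale (adjusted p = 0.0103, and 0.0503 to 0.0871 without the crel-/- 1 h, crel-/- 3 h or knock-in 1 h library). Mmp3, stromelysin-1, had 9.66 and 4.89 CPM at 1 h and 40.9 and 5.57 CPM at 3 h (adjusted p = 0.201).

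Interferon-stimulated genes, the antiviral genes that follow type I interferon, were higher at 3 h in part. Of 42 tested, 12 were called higher and none lower, beside 12.2% and 10.4% of all genes, with a median of 0.96. Mx2, an antiviral GTPase, had 4.18 and 3.37 CPM at 1 h and 16.2 and 26.4 CPM at 3 h, a rise of 2.51 ± 0.50 (adjusted p = 0.00661). Ifit1, which binds viral RNA, went from 51.6 and 71.1 CPM to 288 and 278 CPM (2.18 ± 0.54, adjusted p = 0.0177), and Irgm2, an immunity-related GTPase, from 32.8 and 33.6 CPM to 157 and 89.7 CPM (1.84 ± 0.40, adjusted p = 0.0104). In each of these 3 genes both 3 h libraries lay above both 1 h libraries. Not one of the 12 calls held without the crel-/- 1 h library. Without that library the adjusted p was 0.0508 for Mx2, 0.136 for Ifit1 and 0.0947 for Irgm2. The call of Mx2 also ended without the knock-in 1 h library (0.0506), that of Ifit1 without the knock-in 3 h library (0.0728) and that of Irgm2 without the crel-/- 3 h library (0.0608). The number of rises was 2 without either 3 h library and 5 without the knock-in 1 h library. Ifnb1, the gene for interferon beta, had no count at 1 h and 4 counts at 3 h over both genotypes. The median change of the list was 1.57 in the crel-/- pair and 0.50 in the knock-in pair. Gbp5, a guanylate-binding protein gene, went from 14.6 to 209 CPM in crel-/- and from 0.59 to 5.85 CPM in knock-in cells (adjusted p = 0.0612).

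Of 27 immediate early transcription factors, 2 were called higher, 5 lower and 20 not at all, a share of calls near the 22.7% of all genes. Fos, which encodes a subunit of AP-1, lies on chromosome 12 at 85473890-85477273 (mm10, plus strand). It had 184 and 302 CPM at 0.5 h, 14.1 and 18.1 CPM at 1 h, and 88.3 and 151 CPM at 3 h, from 16.9 and 19.9 CPM at 0 h. The 1 h levels were thus at the level of unstimulated cells, and both 3 h libraries lay above both 1 h libraries, with a log2 change of 2.88 ± 0.37 (SE; adjusted p = 8.37e-04). Egr1, a zinc finger activator, had the same course: 1035 and 1161 CPM at 0.5 h, 74.3 and 98.6 CPM at 1 h, and 151 and 659 CPM at 3 h. The fitted rise was 2.19 ± 0.63 (adjusted p = 0.0337), and the adjusted p was 0.165 without the crel-/- 1 h, 0.124 without the knock-in 1 h and 0.336 without the knock-in 3 h library. Ccn1, a matrix-bound signalling protein, followed with 1232 and 1358 CPM at 0.5 h, 180 and 262 CPM at 1 h, and 340 and 791 CPM at 3 h (1.34 ± 0.40, adjusted p = 0.0378, and 0.0947 to 0.293 without the crel-/- 1 h, knock-in 1 h or knock-in 3 h library). Levels at least 1.5-fold above the 1 h level at both 0.5 h and 3 h in both genotypes were found for 60 genes, 0.428% of those tested, among them Fos, Egr1, Ccn1, Dusp1, Dusp6 and Cxcl2. Dusp1 and Dusp6, phosphatases that switch off MAP kinases, were not called (adjusted p = 0.209 and 0.0503). Dusp6 was called in 7 other settings, among them DESeq2 (0.00291), limma-voom (0.0492) and the fit of the 4 libraries alone (0.00929). Of the 24 genes for MAP kinase phosphatases and mRNA decay factors none was called, beside 22.7% of all genes. Members near the threshold were called elsewhere: Zfp36l1, an mRNA decay factor, at 0.0765, was called with DESeq2 (0.0233) and without the crel-/- 3 h library (0.00322), and Dusp16, at 0.0681, was called in 3 settings (0.00755 to 0.0491).

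Other immediate early genes fell. Fosb had 52.3 and 52.5 CPM at 1 h and 1.54 and 10.7 CPM at 3 h, a fall of 3.16 ± 0.50 on the log2 scale (adjusted p = 0.00203, and 0.118 in a fit of the 4 libraries alone). Nr4a3, an orphan nuclear receptor, fell from 60.0 and 77.7 CPM to 6.42 and 13.5 CPM (-2.80 ± 0.43, adjusted p = 0.00179). Nr4a2, its relative, fell from 47.9 and 33.6 CPM to 16.8 and 15.1 CPM (-1.34 ± 0.14, adjusted p = 1.99e-04). For all 3 genes the times did not overlap. The 3 h levels of Nr4a3 were still above the 0 h levels of 1.69 and 1.87 CPM, and those of Nr4a2 above 11.8 and 7.80 CPM. Fosb had 3.14 and 2.46 CPM at 0 h, and its 3 h level was above that in the knock-in only. Klf10 fell by 1.71 ± 0.45 (adjusted p = 0.0225, and 0.0655 to 0.15 without the crel-/- 1 h, crel-/- 3 h or knock-in 1 h library), and Srf, the gene for serum response factor, by 0.50 ± 0.14 (adjusted p = 0.0183, and 0.114 without the crel-/- 3 h or the knock-in 1 h library). At 3 h, 26 of the 27 genes had a higher level in the knock-in than in the crel-/- library, beside 50.5% of all genes tested, and at 1 h 14 of 27. Jun, with 243 CPM in crel-/- and 535 CPM in knock-in cells at 3 h, and Nr4a1, with 12.8 and 125 CPM, are examples, neither with a called late change (adjusted p = 0.699 and 0.063). These genotype counts compare 1 library with 1 library and have no replicate check.

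A second group of genes fell that TNF had not raised by 1 h. Rasgrp3, an activator of Ras family GTPases, lies on chromosome 17 at 75435905-75529043 (mm10, plus strand). It had 56.3 and 56.9 CPM at 0 h, 47.7 and 51.9 CPM at 1 h and 5.82 and 8.25 CPM at 3 h, a fall of 2.83 ± 0.22 (adjusted p = 5.18e-05). Map2k6, a kinase upstream of p38, had 13.2 and 11.4 CPM at 1 h and 3.25 and 1.63 CPM at 3 h (-2.31 ± 0.25, adjusted p = 1.99e-04). Abcd2, a peroxisomal fatty acid transporter, fell from 10.9 and 11.6 CPM to 1.71 and 2.78 CPM (-2.33 ± 0.29, adjusted p = 3.08e-04). In these genes all 1 h values lay well above all 3 h values. Arhgap19, Pkib, Slc46a3 and Cd28 were also among the 12 largest falls, with fitted changes of -1.95, -2.03, -2.12 and -2.21 and adjusted p of 8.34e-04, 2.74e-04, 0.00139 and 0.00103. Gab3 and Prlr completed the 12 with Fosb, Nr4a3 and Gpr34. The calls of Gab3 (adjusted p = 0.0112) and Prlr (0.0172) ended without the crel-/- 1 h library, at 0.102 and 0.0593. They ended too without the knock-in 3 h library for Gab3 (0.0717), and without the crel-/- 3 h (0.14) or knock-in 1 h library (0.0803) for Prlr.

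Gpr34 and other falling genes encode receptors known from microglia and macrophages, and a list of 29 such receptors was drawn up after these values had been seen. The median change of the list was -0.15, and 17 of the 29 were not called. Of the 29 receptors 10 were called lower and 2 higher, beside 10.4% and 12.2% of all genes, and 8 were called lower without each of the 4 libraries in turn. Gpr34, a receptor for lysophosphatidylserine, fell from 14 and 12.6 CPM to 2.06 and 2.88 CPM (-2.43 ± 0.35, adjusted p = 7.62e-04). P2ry13, a receptor for ADP, fell from 4.09 and 3.04 CPM to 0.771 and 0.192 CPM (-2.81 ± 0.47, adjusted p = 0.00142), and P2ry12, another, from 13.7 and 11.6 CPM to 6.34 and 3.55 CPM (-1.36 ± 0.23, adjusted p = 0.00139). Tlr7 and Tlr8, endosomal receptors for single-stranded RNA, fell from 87.5 and 94.6 CPM to 41.1 and 49.7 CPM and from 40.6 and 41.6 CPM to 15.4 and 16.6 CPM (-1.01 ± 0.12 and -1.36 ± 0.14, adjusted p = 2.88e-04 and 1.99e-04). Mertk, a receptor for the uptake of dead cells, fell from 48.1 CPM in both genotypes to 20.7 and 23.4 CPM (-1.13 ± 0.19, adjusted p = 0.00186). Gpr84, a receptor for medium-chain fatty acids, and Tlr1 were the 2 called higher. Gpr84 went from 17.1 and 0.337 CPM to 89.6 and 2.78 CPM (adjusted p = 0.00959, 0.272 without the crel-/- 1 h and 0.0997 without the crel-/- 3 h library), and Tlr1 from 14.9 and 12.5 CPM to 28.9 and 29.8 CPM (adjusted p = 0.046, and 0.0923 to 0.184 with 1 library left out). Over the same interval the summed level of the 17 macrophage markers was higher at 3 h, none of them was called lower and 3 were called higher: Cd14, C1qa and C1qb. The call of Cd14 (adjusted p = 0.0295) was lost without the crel-/- 1 h, knock-in 1 h or knock-in 3 h library (0.125 to 0.23), and that of C1qb (0.0127) without the crel-/- 1 h (0.121) or knock-in 3 h library (0.0999). C1qa, a complement gene, rose from 295 and 261 CPM to 395 and 378 CPM (0.48 ± 0.07, adjusted p = 7.26e-04). In bulk RNA, fewer cells of a type and less RNA per cell cannot be told apart, and which cells of the culture held these transcripts was not tested.

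**Figure D3:**
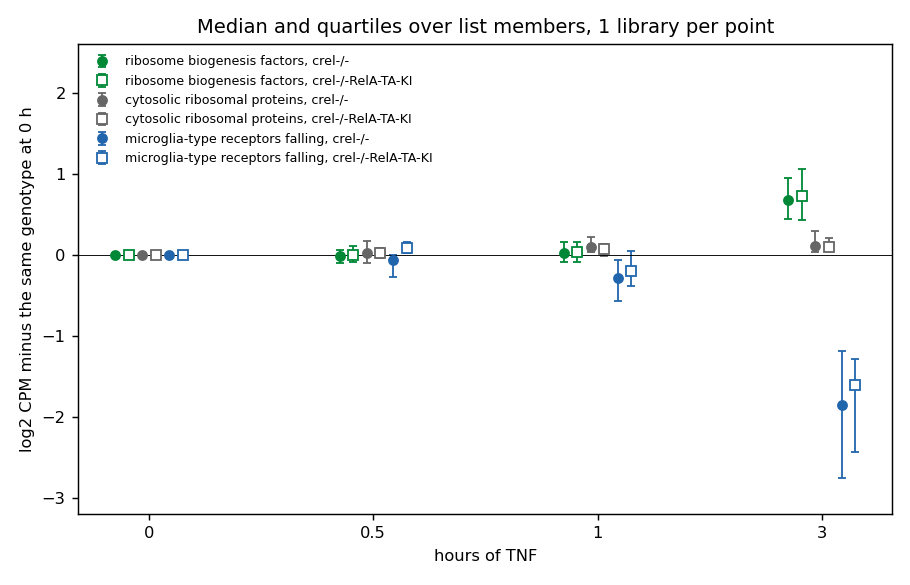
Log2 CPM minus the 0 h level of the same genotype for the members of 3 lists (median with lower and upper quartile over genes, 1 library per point, filled symbols crel-/-, open symbols knock-in): 91 ribosome biogenesis factors, 78 cytosolic ribosomal proteins and the 10 microglia-type receptors called lower, which were chosen by that call. The biogenesis factors have medians of 0.02 and 0.04 at 1 h and of 0.68 and 0.72 at 3 h, whereas the ribosomal proteins stay at or below 0.11.

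Genes for making ribosomes rose together by modest amounts, with a median of 0.71 in the crel-/- and 0.68 in the knock-in pair. This list of 91 nucleolar and ribosome assembly factors was drawn up after the values had been seen. Of its members 77 were called higher and none lower, beside 12.2% and 10.4% of all genes, with a median of 0.69. With 1 of the 4 libraries left out, 62 to 69 were called higher. Nop56, a core protein of the box C/D particles that guide methylation of ribosomal RNA, lies on chromosome 2 at 130274430-130279313 (mm10, plus strand). It had 29.0 and 30.0 CPM at 0 h, 30.7 and 29.6 CPM at 1 h and 63.1 and 69.1 CPM at 3 h, a rise of 1.13 ± 0.13 (adjusted p = 2.38e-04). Grwd1, a ribosome assembly factor, went from 14 and 13.2 CPM to 37.9 and 43.5 CPM (1.58 ± 0.16, adjusted p = 1.54e-04). Nop2, a methyltransferase of ribosomal RNA, went from 31.6 and 29.6 CPM to 71.5 and 80.6 CPM (1.31 ± 0.17, adjusted p = 4.38e-04), and Ddx21, a nucleolar helicase, from 105 and 116 CPM to 233 and 254 CPM (1.14 ± 0.14, adjusted p = 3.49e-04). For these 4 genes the times did not overlap, and the levels at 1 h lay near those of unstimulated cells. Ncl, nucleolin, rose by 0.36 ± 0.07 (adjusted p = 0.0025), while Npm1, nucleophosmin, with 203 and 197 CPM at 1 h and 205 and 204 CPM at 3 h, was among the 14 not called (adjusted p = 0.721). Of the 74 members with a promoter, 9.46% hold an NF-kB match and 5.41% an E-box, beside 8.92% and 8.64% of all.

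Neighbouring lists, also drawn up afterwards, moved less. Their counts stand beside 12.2% of all genes called higher and 10.4% called lower. Of 14 genes for RNA polymerase I, the enzyme of ribosomal RNA, 7 were called higher and 1 lower. Polr1b, its second largest subunit, rose from 13.8 and 14.9 CPM to 33.4 and 35.8 CPM (1.26 ± 0.14, adjusted p = 1.99e-04), and Polr1a, the largest, by 0.72 ± 0.11 (adjusted p = 8.19e-04). The lower one was Taf1b, a promoter factor of the enzyme, at -0.51 (adjusted p = 0.0342, and 0.0968 to 0.13 with 1 library left out). The 7 rises were 4 without the crel-/- 1 h library. Cytosolic tRNA synthetases had 11 of 20 called higher and 1 lower, with a median of 0.27, and 5 or 7 higher with the crel-/- or the knock-in 1 h library left out. Of 78 genes for the ribosomal proteins themselves 2 were called higher and none lower, with a median of 0.04. Of 351 zinc finger genes named Zfp 56 were called higher and 8 lower, 64 in all, a share below the 22.7% of all genes called. Their rises numbered 18, 24 and 33 when the crel-/- 1 h, the crel-/- 3 h or the knock-in 1 h library was left out. The Kruppel-like factors held no rise and 5 falls among 13, of which Klf9 fell from 50.9 and 68.7 CPM to 22.0 and 34.2 CPM (-1.10 ± 0.22, adjusted p = 0.00463). The 5 falls were 1 without the crel-/- 3 h or the knock-in 1 h library.

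Of 17 genes of TGF-beta and BMP feedback 7 were called lower and 3 higher, beside 10.4% and 12.2% of all genes, with a median of -0.57, and the count of falls was 4 without either crel-/- library. Id1, an inhibitor of helix-loop-helix factors, fell from 33.8 and 38.3 CPM to 12.8 and 15.4 CPM (-1.36 ± 0.15, adjusted p = 1.99e-04). Bambi, a decoy receptor, fell from 13.1 and 12.9 CPM to 6.85 and 7.77 CPM (-0.83 ± 0.14, adjusted p = 0.00137), and Ski, a corepressor of Smad proteins, from 414 and 430 CPM to 282 and 319 CPM (-0.49 ± 0.10, adjusted p = 0.00472). Grem1, a BMP antagonist, was among the 3 that rose (0.79 ± 0.17, adjusted p = 0.00563, and 0.0759 without the knock-in 1 h library).

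Of 16 circadian clock genes 7 were called lower and 4 higher, beside 10.4% and 12.2% of all genes, with 4 falls without the knock-in 1 h and 1 rise without the crel-/- 1 h library. Dbp, a clock output factor, fell from 16.0 and 18.6 CPM to 3.85 and 6.14 CPM (-1.80 ± 0.28, adjusted p = 0.00108), Tef, its relative, from 82.1 and 81.0 CPM to 39.2 and 38.7 CPM (-1.07 ± 0.13, adjusted p = 3.59e-04), and Per3, a repressor of the clock, from 16.5 and 14.2 CPM to 8.39 and 7.39 CPM (-0.96 ± 0.15, adjusted p = 8.21e-04). Arntl, the gene for the activator BMAL1, moved the other way, from 16.9 and 18.0 CPM to 26.9 and 53.4 CPM (1.17 ± 0.19, adjusted p = 0.00129, and 0.063 in the fit of the 4 libraries alone). Its 3 h levels differed between the libraries of the 2 genotypes more than its 1 h levels did.

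HOX genes held 10 falls and no rise among 32 tested, beside 10.4% and 12.2% of all genes, with a median of -0.52. Hoxa13, a gene of the limb end, fell from 31.8 and 20.4 CPM to 18.3 and 10.8 CPM (-0.83 ± 0.17, adjusted p = 0.00449, and 0.0696 without the crel-/- 1 h library), and Hoxd13 from 162 and 133 CPM to 95.8 and 94.7 CPM (-0.63 ± 0.13, adjusted p = 0.00581, and 0.0701 without that library). The 10 falls were 1 without the crel-/- 1 h library, 4 without the crel-/- 3 h or the knock-in 1 h library and 7 without the knock-in 3 h library. The median was -0.57 in the crel-/- and -0.12 in the knock-in pair. Of 26 DNA replication and mitosis genes 3 were called lower and none higher, a share near the 10.4% of all genes called lower. E2f1, an activator of replication genes, fell from 30.6 and 32 CPM to 19.4 and 18.7 CPM (-0.71 ± 0.15, adjusted p = 0.00519). Fibroblast matrix and contractile genes were nearly flat: 1 of 26, Ccn1, was called, and the median was 0.06. Of 20 p53 targets 2 were called higher and 1 lower, and of 20 genes of cholesterol synthesis and uptake 1 was called lower, while antigen presentation had 1 of 16 called higher. In each of these lists, the fibroblast list included, the share of calls was below the 22.7% of all genes.

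**Figure D4:**
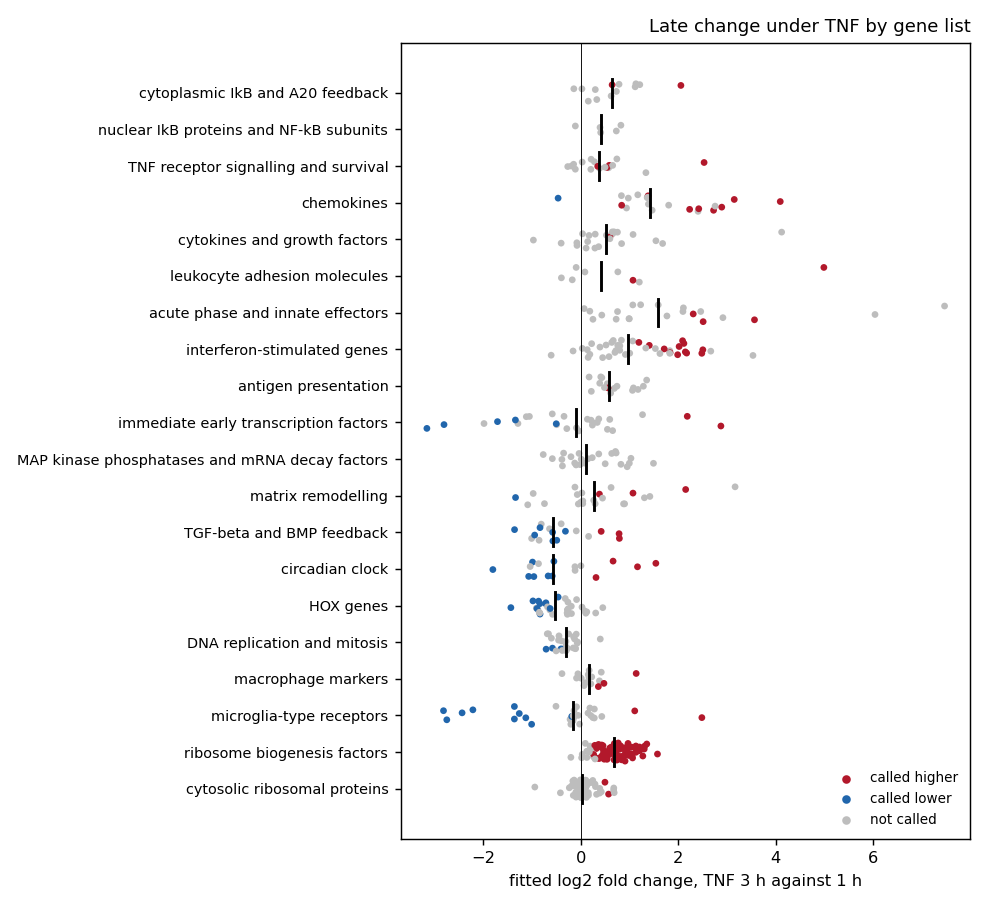
Fitted log2 fold change of TNF 3 h against 1 h for the tested members of 20 gene lists, 1 point per gene, red where called higher, blue where called lower and grey where not called, with a black bar at each list's median. The ribosome biogenesis factors form a narrow group to the right of 0 (77 of 91 called), the TGF-beta and BMP feedback, circadian clock and HOX lists have medians of -0.57, -0.57 and -0.52, and the immediate early genes reach from -3.16 to 2.88.

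IL-1b at the same dose gives the same contrast of times under another agent that activates NF-kB. From 1 h to 3 h of IL-1b, 1482 genes (10.6%) were called higher and 1071 (7.64%) lower, 18.2% in all. No gene passed the test of the difference between the changes under TNF and IL-1b, which share no library: the lowest adjusted p was 0.081, 942 genes had an unadjusted p under 0.05, DESeq2 called 27 (18 higher and 9 lower under TNF), and limma-voom none. Rasgrp3 changed by -2.83 under TNF and -0.70 under IL-1b, where its fall was called too (adjusted p = 0.0256). The difference was -2.13 with a 95% interval of -2.79 to -1.46 (adjusted p = 0.081). Traf1 changed by 2.53 under TNF and -0.08 under IL-1b (difference 2.62, interval 1.37 to 3.87, adjusted p = 0.249), and Fos by 2.88 and 0.59 (2.29, 1.06 to 3.52, adjusted p = 0.371). Nop56 changed by 1.13 and 1.00 (adjusted p = 0.949), and 72 of the 91 ribosome biogenesis factors were called higher under IL-1b as well. Of the 12 largest falls under TNF, all but those of Gab3 (adjusted p = 0.136) and Cd28 (0.0613) were also called lower under IL-1b. Among them Fosb changed by -4.22 and Nr4a3 by -3.90 there. Under IL-1b, 7 of the 16 clock genes and 2 of the 29 microglia-type receptors were called lower, beside 7.64% of all genes. Of 357 genes that IL-1b had raised at least by 1 on the log2 scale at 1 h over 0 h, 15 were called higher and 26 lower in the late change under TNF, beside 12.2% and 10.4% of all genes. Under IL-1b the counts were 11 and 69, but there the same 1 h libraries chose the genes, which favours falls, so the counts of the agents are not compared.

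**Figure D5:**
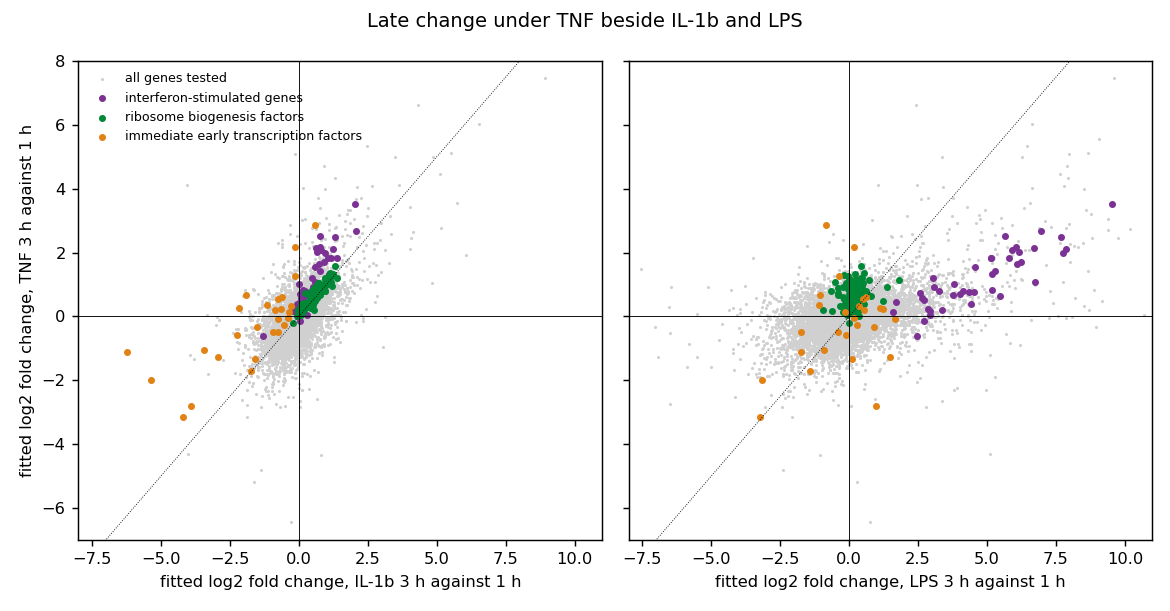
Fitted log2 fold change of TNF 3 h against 1 h (y axis) beside that of IL-1b (left x axis) and LPS (right x axis), 1 point per gene in grey for all 14023 genes, with 3 lists in colour and the dotted line marking equal change. The interferon-stimulated genes lie far to the right under LPS, with a median of 4.55 against 0.96 under TNF, and the ribosome biogenesis factors lie near the line for IL-1b and left of it for LPS.

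LPS, a bacterial product that signals through TLR4 and also induces interferon, gave a wider late change, with 3631 genes (25.9%) called higher and 3545 (25.3%) lower, 51.2% in all. The change under TNF was called above that under LPS for 2198 genes (15.7%) and below it for 2297 (16.4%), 32.1% in all. Of the 42 interferon-stimulated genes 41 were called below LPS, and Cxcl9, a chemokine that interferon induces, changed by 2.73 under TNF and 10.17 under LPS (difference -7.44, adjusted p = 0.00242). In the opposite sense, 48 of the 91 ribosome biogenesis factors were called above LPS and 3 below, with a median of 0.69 under TNF and 0.16 under LPS. Fos changed by 2.88 under TNF and -0.83 under LPS (difference 3.71, adjusted p = 3.67e-04), and Ccn1 by 1.34 and -0.91 (difference 2.25, adjusted p = 0.013). Nr4a3 fell under TNF and was not called under LPS (-2.80 and 0.98, difference -3.79, adjusted p = 8.60e-04), and Tlr8 fell under TNF and rose under LPS (-1.36 and 0.65, difference -2.01, adjusted p = 8.53e-06). Rasgrp3 changed by -2.83 under TNF and -3.04 under LPS (difference 0.21, adjusted p = 0.699). The 2 LPS 3 h libraries had scaling factors of 0.723 and 0.732 against 0.987 to 1.04 in the 4 TNF libraries, and the part of this in the differences was not tested.

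No gene passed the test of a genotype difference in the late change under TNF, in which the spread came from the other conditions and 7 residual degrees of freedom. The lowest adjusted p was 0.729, 628 genes had an unadjusted p under 0.05, DESeq2 called 4 genes (all with a positive knock-in minus crel-/- difference) and limma-voom none. Among the 3177 called genes the median absolute change was 0.53 in the crel-/- pair and 0.50 in the knock-in pair, and 1728 had the larger change in crel-/-. For Fosb the fall was smaller in the knock-in by 2.79, with a 95% interval of 1.31 to 4.27 (edgeR adjusted p = 0.872). For Traf1 the knock-in change exceeded the crel-/- change by 0.87, with a 95% interval of -0.22 to 1.96, and for Icam1 by 0.43, with an interval of -3.62 to 4.48. The spread in this test is that of the genotype differences in the other conditions, so a genotype effect under IL-1b or LPS widens the intervals. A gene with such an effect could hardly pass. With 1 library on each side, neither intervals of this width nor the absence of calls shows that the genotypes changed alike.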

How the data were processed

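Stranded mRNA-seq libraries of 50 nt single-end reads came from 20 conditions, and the 4 TNF libraries of 1 h and 3 h carry the contrast. The submitters' processing notes name cutadapt 1.12, STAR, featureCounts 1.5.1, DESeq2 and mm10. The deposited table holds the authors' read counts per gene and library, raw and not normalized per the file headers, with 45706 genes (98.8% with a symbol). A gene was tested if 2 or more libraries reached 1 CPM (14023 genes, holding 99.9% of counts). Changes were tested with edgeR 4.0.16 (quasi-likelihood F test, R 4.3.3, TMM scaling) on all 20 libraries with condition and genotype as terms and 9 residual degrees of freedom, and p-values were adjusted by Benjamini-Hochberg over all genes tested, with a threshold of 0.05. The biological coefficient of variation was 10.6%. All other conditions therefore set the spread, as genotype differences that vary between conditions, and each TNF library is assumed to vary like them. DESeq2 1.42.0 and limma-voom (limma 3.58.1) were alternatives. The test was also run on counts simulated from the fitted means and spread. It recovered 72% of 100 genes changed 2-fold and 82% of 100 changed 4-fold, and 5.5% of its calls were false. Variation between cultures and genotype effects on the mean responses were not simulated, so these shares do not cover them. Counting intervals are exact at 95% and cover counting error only. Standard errors were derived from the fitted change and its F statistic. The other 95% intervals use 9 residual degrees of freedom, or 7 for the genotype difference, so an interval need not match the p-value beside it.

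The text names the 12 largest rises and falls among called genes that moved the same way in both genotypes (Saa3 met this by numerical rounding alone, having no knock-in count), with a mean of at least 5 CPM on the higher side and a non-clone symbol, up to 4 genes of smallest p per list, the 5 largest differences between agents each way, and a fixed set that includes Nfkbia, Icam1, Fos and Il6. Other genes, and the lists of ribosome biogenesis, RNA polymerase I, tRNA synthetases, ribosomal proteins, receptors, Kruppel-like factors and Zfp genes, were chosen after their values were seen. Members and lists were chosen with earlier results of these data known. Promoters are RefSeq, GRCm38.p6.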

Additional observations from a re-analysis of the deposited data

Results flagged for a closer look

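The late change under TNF differed from that under LPS, by the edgeR test of the difference itself, for the named genes below; each has more than 10 counts over both TNF libraries of 1 time, a limit set after the values were seen, and all values are log2 changes from 1 h to 3 h.

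A first group rose under LPS and not under TNF. Bambi, the decoy receptor of BMP signalling, changed by -0.83 under TNF and 3.33 under LPS (difference -4.16, adjusted p = 3.23e-08). Gadd45g, a stress-induced gene, changed by -0.73 and 2.45 (difference -3.18, adjusted p = 2.71e-05). Hoxd13 changed by -0.63 and 1.05 (difference -1.68, adjusted p = 3.35e-05), and Nr1d2, a nuclear receptor of the clock, by -0.58 and 0.24 (difference -0.82, adjusted p = 2.44e-04).

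Genes that fell under TNF and were not called lower under LPS were Nr4a3 at -2.80 and 0.98 (difference -3.79, adjusted p = 8.60e-04), Slc46a3 at -2.12 and 0.56 (difference -2.68, adjusted p = 0.00109) and Pkib at -2.03 and -0.26 (difference -1.77, adjusted p = 0.00223). Fos went the other way, at 2.88 and -0.83 (difference 3.71, adjusted p = 3.67e-04).

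A further group rose under both agents and more under LPS. Cxcl9 changed by 2.73 and 10.17 (difference -7.44, adjusted p = 0.00242), Ifit1bl1 by 2.70 and 9.39 (difference -6.68, adjusted p = 7.24e-04), Ifi205 by 2.79 and 7.32 (difference -4.53, adjusted p = 0.00286) and Saa3 by 3.57 and 6.54 (difference -2.97, adjusted p = 0.031). All 4 are inflammatory or interferon-induced genes, and Saa3 had counts in crel-/- cells only under TNF.

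The last group fell under LPS and less or not under TNF. Cnr2, the cannabinoid receptor of immune cells, changed by -1.26 and -6.93 (difference 5.67, adjusted p = 0.0248), Tfap4 by 0.20 and -4.37 (difference 4.56, adjusted p = 1.77e-04), Gpr183, an oxysterol receptor, by 0.25 and -4.23 (difference 4.48, adjusted p = 2.44e-04), Lyl1 by -0.23 and -4.63 (difference 4.4, adjusted p = 1.44e-05) and Cd300lb by 0.04 and -4.07 (difference 4.11, adjusted p = 0.0025). Of the p53 targets, Sesn2 changed by 0.31 and -0.71 (difference 1.01, adjusted p = 3.35e-05) and Zmat3 by 0.22 and -0.23 (difference 0.45, adjusted p = 0.0039). The LPS 3 h libraries had scaling factors of 0.723 and 0.732, and the part of that in these differences was not tested.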

How the results depend on the processing

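Each setting changed 1 choice. The 1712 genes called higher were 669 to 1212 with 1 of the 4 libraries left out and 963 in a fit of the 4 TNF libraries alone, and the 1465 called lower were 653 to 998 and 780. These settings hold fewer libraries, and the part of that in the lower counts was not tested. Without the crel-/- 1 h library, 1289 of the 1322 genes called were among those reported. No gene passed for the difference between TNF and IL-1b, whereas 5 were higher and 4 lower with no count filter, 18 and 9 with DESeq2, 6 and 4 without the LPS 3 h libraries, and 0 to 12 and 0 to 3 with 1 library left out; the cause was not tested. For the genotype difference, 4 genes were higher with DESeq2. Saa3 reversed to -0.49 without the crel-/- 1 h library, which leaves 1 crel-/- library of the pair; the knock-in had no count, and the value was 3.93 without the crel-/- 3 h library. Of 333 single genes followed, 283 were called and 107 of these under every setting. Genotype is the block, so each 3 h library is set against the 1 h library of its own genotype, and without it 2258 genes were called. The labels carry no replicate numbers, so no pairing beyond genotype was possible. With DESeq2 17 of the followed calls ended, among them those of Saa3 (adjusted p = 0.609), Gpr84 (0.214) and Clec4e (0.0529). With limma-voom 9 ended, among them those of Ibsp (0.252), Alpl (0.149), Saa3 (0.0974), Ccl12 (0.0882) and Ccr3 (0.0726). Without the genotype term 61 ended in edgeR, among them those of Spib (0.144), Il1rn (0.0768) and Traf1 (0.0613).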
